A study of Homo sapiens with 6 samples.

Results

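The BCL2 family was followed in T24 cells, an established human bladder cancer line, with and without overexpression of RNF112, a RING-finger ubiquitin ligase. The 10 genes described, BCL2A1, BCL2, BCL2L1, MCL1, BAX, BAK1, BID, BCL2L11, BBC3 and PMAIP1, were chosen by symbol as the family's best known anti- and pro-apoptotic members. All 10 were found among the 23152 genes of the deposited table. The choice was made with the fold changes between the groups already known, so the members' values between groups are given as a description, without p-values. The data were 3 libraries labelled vector, from T24 cells that carry an empty vector, and 3 labelled oeRNF112, from T24 cells that overexpress RNF112. No other allele, agent or time point is given in the labels. The deposited protocol text speaks of siRNA transfection, which does not match these labels. The labels do not say whether the samples were separate cultures, so the errors cover the spread between these libraries, which may be technical. RNF112 had 27, 19 and 24 counts in vector and 29753, 36963 and 31712 counts in oeRNF112, and construct reads may be among the latter. Total counts lay between 40029547 and 41259569, and a count of 0 at this depth allows up to 3 counts, which is a counting limit only.

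Proteins of the BCL2 family decide at the mitochondrial outer membrane whether a cell dies by apoptosis. The survival proteins BCL2, BCL-XL (from BCL2L1), MCL1 and A1 (from BCL2A1) hold the pore-forming proteins BAX and BAK in check. BH3-only proteins such as BID, BIM (from BCL2L11), PUMA (from BBC3) and NOXA (from PMAIP1) bind the survival proteins or activate BAX and BAK, and NOXA prefers MCL1 and A1. Once BAX or BAK opens the membrane, cytochrome c leaves the mitochondria and caspases are activated. BCL2A1 is a known target of NF-kB, best studied in leukocytes and in melanoma.

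Upstream sequences were available from RefSeq for 9 of the 10 genes, and 2 are shown, that of the member with the largest difference and that of the member with the most E-boxes, a motif of MYC and related factors. Each runs over the 250 bases before the start site, 5′ to 3′ on the gene's own strand. Capitals mark matches to any of the motifs searched on both strands, namely the NF-kB consensus, the E-box CACGTG, the AP-1 site TGANTCA, the C/EBP-ATF element TGATGNAAN, the interferon response element (GAAA, any 2 bases, GAAA) and the p53 half-site RRRCWWGYYY. There R is A or G, W is A or T and Y is C or T.
BCL2A1: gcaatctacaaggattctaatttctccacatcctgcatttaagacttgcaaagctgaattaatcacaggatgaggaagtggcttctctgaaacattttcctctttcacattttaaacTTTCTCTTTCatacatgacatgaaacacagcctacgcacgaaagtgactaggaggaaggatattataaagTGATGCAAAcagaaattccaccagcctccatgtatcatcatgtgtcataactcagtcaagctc
BAX: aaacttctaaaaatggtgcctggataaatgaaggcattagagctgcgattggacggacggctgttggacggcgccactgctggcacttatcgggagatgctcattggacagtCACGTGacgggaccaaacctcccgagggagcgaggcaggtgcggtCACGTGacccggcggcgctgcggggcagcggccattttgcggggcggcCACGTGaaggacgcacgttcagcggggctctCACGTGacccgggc

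The BCL2A1 stretch is chr15:79971197-79971446 (GRCh38.p14, minus strand), upstream of a gene that spans chr15:79960892-79971196. It held one interferon response element, read on the opposite strand, from 133 to 124 bases before the start site, and one C/EBP-ATF match from 63 to 55 bases before it. No NF-kB consensus was found in the searched window of 300 bases, which also covers the 50 bases after the start. The interferon element was in 3.57% and the C/EBP-ATF element in 3.61% of 35116 windows of the same length, and 0.214% held both. The BAX stretch is chr19:48954625-48954874 (GRCh38.p14, plus strand) and held 4 E-boxes, beginning 138, 93, 45 and 14 bases before the start site. At least 1 E-box was in 7.26% of the windows and at least 4 in 0.0142%. E-boxes were also found in windows of BBC3 and BID, and the NF-kB consensus in none of the 9 genes (5.91% of all windows). BBC3 also held an AP-1 match (7.71% of all windows) before the start site and 2 interferon elements, overlapping each other, after it. Only BAK1 of the 9 genes held a p53 half-site (6.63% of all windows), at 73 bases before the start site. These matches describe letters and show no binding.

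BCL2A1 was the member with the largest difference between the groups. It had 66, 62 and 64 counts in vector and 387, 568 and 394 counts in oeRNF112. All 3 oeRNF112 samples were far above all 3 vector samples, with oeRNF112 replicate 2 the highest. Its level was 1.88 ± 0.0434 RPKM in vector and 13.3 ± 2.97 RPKM in oeRNF112 (SD, n = 3 each). RPKM is a read count divided by 1 length assigned to each gene and by the depth of the library. The length implied for BCL2A1 was 836 bases, far shorter than the span of the gene. The fitted log2 fold change was 2.73 with a standard error (SE) of 0.194, a 6.64-fold higher level relative to the TMM scale, which equalises the bulk of the genes between libraries. By mean RPKM the gene moved from above 32% of the 14467 genes tested in vector to above 70.3% in oeRNF112. Its fold change exceeded those of 99.8% of the genes tested.

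Of the other survival genes, MCL1, a short-lived protein on which many carcinoma cells depend, was the most abundant. MCL1 had 28127, 28875 and 26908 counts in vector and 37812, 37794 and 41213 counts in oeRNF112. Every oeRNF112 sample was above every vector sample, with a log2 fold change of 0.40 and a standard error of 0.0823. BCL2L1 had 11137, 10971 and 11855 counts in vector and 12793, 13174 and 13046 counts in oeRNF112. The groups were apart by little after TMM scaling, at most 307.2 CPM (counts relative to scaled library size) in vector and at least 308.1 in oeRNF112, with a log2 fold change of 0.12 and a standard error of 0.0826. BCL2, the founding member of the family, was scarce, with 243, 318 and 252 counts in vector and 318, 255 and 405 in oeRNF112. The BCL2 values of the groups overlapped, and the 95% interval of the log2 fold change reached from -0.21 to 0.58.

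The pore-forming members did not separate the groups. BAX had 2149, 1941 and 2587 counts in vector and 2190, 2289 and 2069 in oeRNF112, where vector replicate 3 was the highest of the 6 and vector replicate 2 the lowest. Its log2 fold change was -0.11 with a standard error of 0.123. Without vector replicate 3 the sign turned, to 0.029. BAK1 had 2062, 1887 and 2265 counts in vector and 2283, 2580 and 2406 in oeRNF112, a log2 fold change of 0.14 with a standard error of 0.104. After TMM scaling the highest BAK1 value of vector, 58.7 CPM, exceeded the lowest of oeRNF112, 55.1 CPM.

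Among the BH3-only members, PMAIP1 was higher and BID lower in oeRNF112. PMAIP1 had 8329, 8288 and 7743 counts in vector and 11716, 11476 and 13775 counts in oeRNF112. The groups did not overlap, oeRNF112 replicate 3 was the highest, and the log2 fold change was 0.52 with a standard error of 0.0889. BID, which caspase-8 cleaves to link death receptors to mitochondria, had 2185, 1845 and 2181 counts in vector and 1685, 1794 and 1651 in oeRNF112. Vector replicate 2 lay nearest to the oeRNF112 samples, and the log2 fold change was -0.36 with a standard error of 0.104. On library totals without TMM factors the BID log2 fold change was -0.26. BCL2L11 had 327, 436 and 329 counts in vector and 362, 343 and 432 in oeRNF112, and BBC3 had 359, 267 and 342 against 303, 381 and 380. Both overlapped between the groups, with log2 fold changes of -0.022 and 0.054, whose signs were not stable when single samples were left out. Their 95% intervals were -0.35 to 0.30 for BCL2L11 and -0.29 to 0.40 for BBC3, so differences under about these sizes were not resolved with 3 samples a group.

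**Figure D1:**
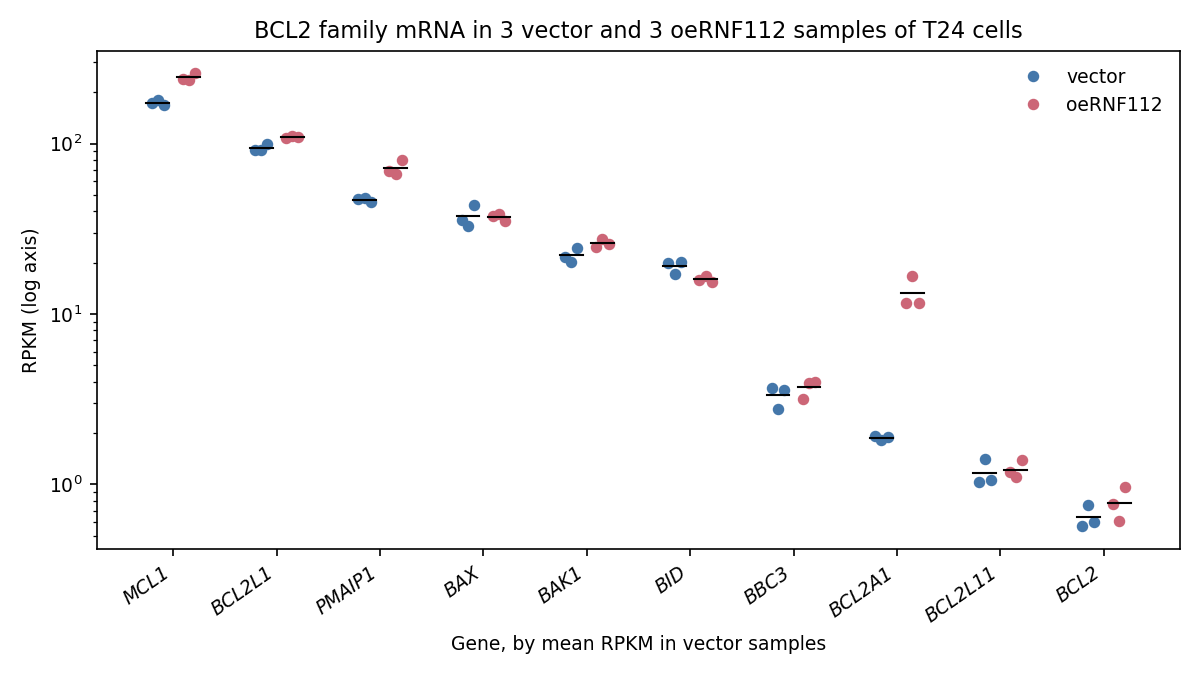
RPKM (log axis) of the 10 BCL2 family members in each library, with 3 vector points (blue) and 3 oeRNF112 points (red) per gene and a black line at each mean. BCL2A1 sits near 1.88 RPKM in vector and 13.3 RPKM in oeRNF112, while the order of the most abundant genes, MCL1, BCL2L1 and PMAIP1, is shared by both groups.

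Past an adjusted p of 0.05 in edgeR's test lay 4 of the 10 members, 3 higher (BCL2A1, MCL1 and PMAIP1) and 1 lower (BID), beside 18.1% of all genes tested (9.97% higher and 8.14% lower). The groups did not overlap for 5 members, beside 36.8% of all genes. Since the members were picked with this contrast known, nothing is read from either count. Nearest to that threshold inside it was BID, and outside it BAK1 and BCL2L1, with the values given above. The median log2 fold change of the members was 0.13 and that of all genes tested 0.0027. Leaving out vector replicate 1 left 2 members past the threshold, BCL2A1 and PMAIP1.

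**Figure D2:**
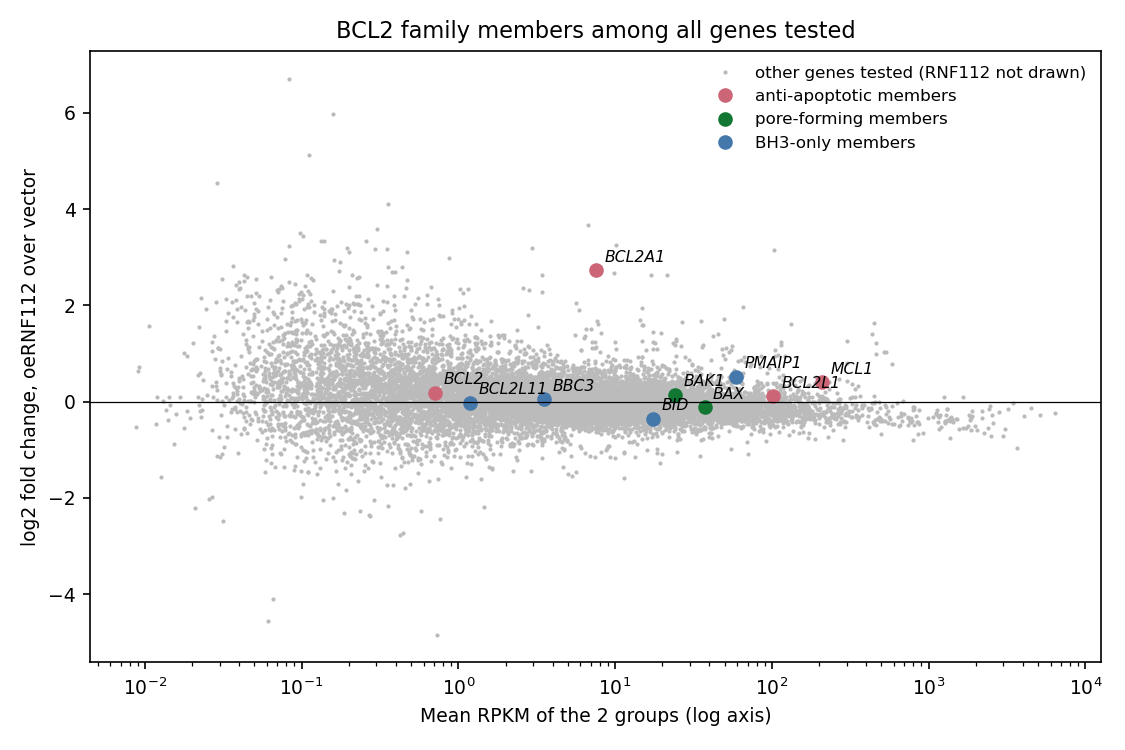
Log2 fold change of each tested gene (grey; RNF112, at 10.4, is off the plot) against its mean RPKM in both groups (log axis), with the 10 members in color by role. BCL2A1 is at 2.73, whereas the other 9 members lie between -0.36 and 0.52.

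Levels per length placed the members in an order that hardly changed. The order, and the shares given below, depend on the length assigned to each gene. In vector, MCL1 was first at 174.0 ± 5.96 RPKM (SD, n = 3), followed by BCL2L1 at 94.4 ± 4.61, PMAIP1 at 47.0 ± 1.57, BAX at 37.4 ± 5.76, BAK1 at 22.1 ± 2.11 and BID at 19.1 ± 1.74 RPKM. BBC3, BCL2A1, BCL2L11 and BCL2 came last, at 3.34 ± 0.487, 1.88 ± 0.0434, 1.16 ± 0.205 and 0.643 ± 0.101 RPKM. Of neighbours in this order, BAK1 and BID overlapped in their samples. In oeRNF112 BCL2A1 was 7th of the 10, above BBC3, and its samples overlapped those of BID, which averaged 15.9 ± 0.639 RPKM. MCL1 averaged 244.5 ± 12.1 RPKM, PMAIP1 72.0 ± 7.33 RPKM and BCL2 0.781 ± 0.181 RPKM there. RPKM was scaled to library totals, and on these totals the median over all genes tested was 0.0962 on the log2 scale, so ratios of RPKM run somewhat above the TMM-scaled folds.

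As a share of the summed RPKM of 6 survival genes, the members with BCL2L2 and BCL2L10, MCL1 made up 61.2% ± 1.59 in vector and 63.6% ± 1.39 in oeRNF112 (SD, n = 3). BCL2L1 made up 33.2% ± 1.69 and 28.5% ± 0.794. BCL2A1 made up 0.662% ± 0.025 in vector and 3.48% ± 0.821 in oeRNF112, a small part of the survival mRNA in both groups. The sum itself was 280.2, 288.9 and 284.3 RPKM in vector and 376.6, 379.0 and 397.4 RPKM in oeRNF112, without overlap. Of the summed RPKM of 8 BH3-only genes (PMAIP1, BID, BBC3, BCL2L11, BAD, BIK, BMF and HRK), PMAIP1 made up 37.7% ± 3.46 in vector and 50.9% ± 4.33 in oeRNF112, and BAD 39.9% ± 3.32 and 30.7% ± 4.11. These shares depend on leaving out the mitophagy receptors BNIP3 and BNIP3L. With both in the sum, an alternative chosen after seeing the data, PMAIP1 made up 15.6% ± 0.991 and 21.5% ± 3.71, BAD 16.55% ± 2.14 and 12.8% ± 0.88, and BNIP3 42.65% ± 0.876 and 43.35% ± 3.4. The sum of the 8 genes was 124.7, 117.5 and 132.5 RPKM in vector and 139.6, 140.1 and 144.0 RPKM in oeRNF112. These values are scaled to library totals. The TMM factors, lower in all vector than in all oeRNF112 samples, would bring the groups closer, so no separation is read from this sum. The sum of BAX, BAK1 and BOK was 80.4, 75.6 and 95.3 RPKM against 84.4, 91.3 and 82.0 RPKM, and these overlapped. As the members entered these sums, they carry no test.

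**Figure D3:**
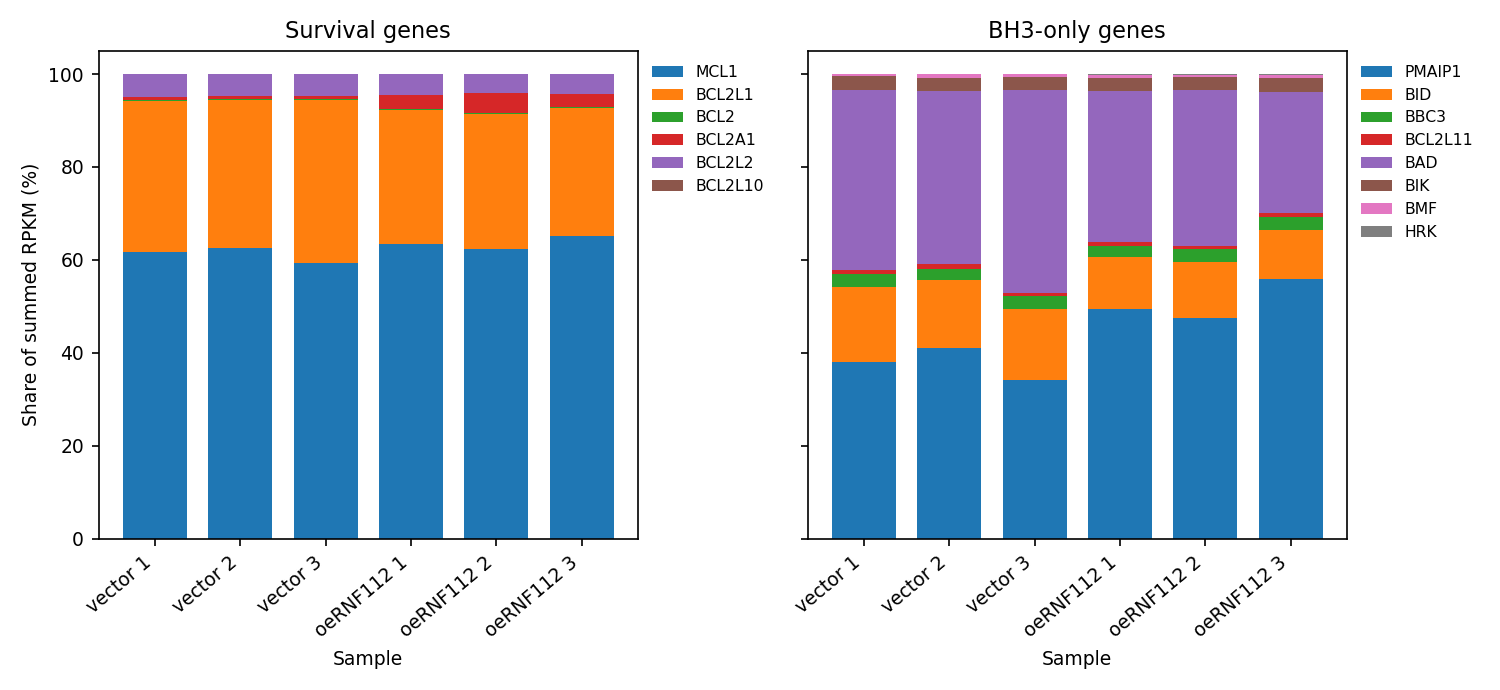
Share of summed RPKM (%) held by each of 6 survival genes (left) and 8 BH3-only genes without BNIP3 and BNIP3L (right) in each of the 6 samples, as stacked bars from 0. MCL1 and BCL2L1 fill most of the left bars in both groups, and PMAIP1 and BAD most of the right bars.

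Among 13 further family genes, outside the choice of members, HRK was the 1 gene past the threshold in edgeR. That is 10% of the 10 tested, beside 18.1% of all genes tested. With limma on log2(RPKM + 1) there were 2 calls, HRK and BCL2L2. HRK, a BH3-only gene named Harakiri and studied chiefly in neurons, had 18, 32 and 31 counts in vector and 68, 75 and 72 in oeRNF112. All oeRNF112 samples were above all vector samples, with a log2 fold change of 1.32 (adjusted p = 0.0107, edgeR; standard error 0.277), and the highest adjusted p with 1 sample left out was 0.0429 by the same test. At 0.291 ± 0.0124 RPKM in oeRNF112 (SD, n = 3) it was still scarce. The other 9 genes tested were BCL2L2, BOK, BCL2L12, BCL2L13, BAD, BIK, BMF, BNIP3 and BNIP3L. BCL2L2, a survival gene that encodes BCL-W, was at 0.17 (adjusted p = 0.174 in edgeR and 0.0335 in limma on log2(RPKM + 1)), and BOK, a BAX-like gene, at -0.18 (adjusted p = 0.29, edgeR). BAD, a BH3-only gene controlled by phosphorylation, had a log2 fold change of -0.30 (adjusted p = 0.153, edgeR), which passed at 0.0368 by the same test without vector replicate 2. BNIP3 and BNIP3L, mitophagy receptors that carry a BH3-like stretch, were at 0.10 and -0.045. BIK, BMF, BCL2L12 and BCL2L13 lay between -0.019 and 0.093. BCL2L10, BCL2L14 and BCL2L15 had at most 7 counts in a sample and were not tested. Their median over the 10 tested genes was -0.0036, beside 0.0027 over all genes.

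**Figure D4:**
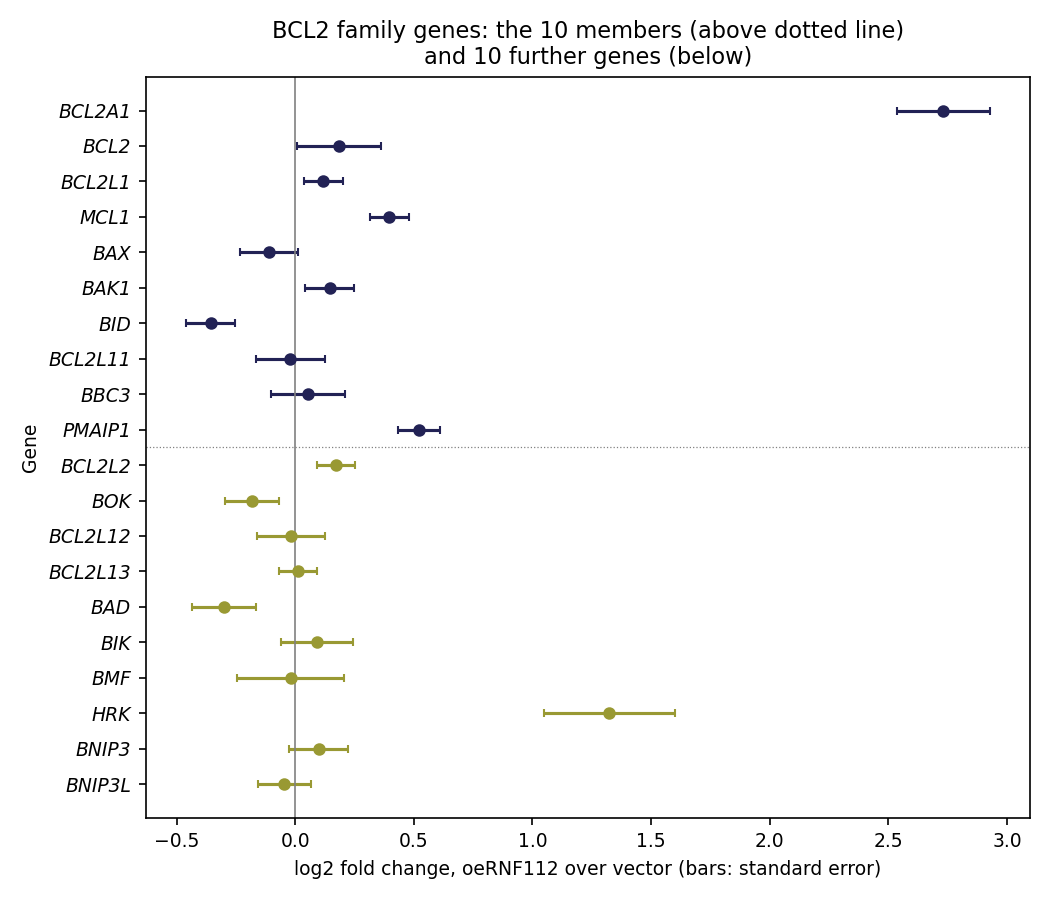
Log2 fold change (oeRNF112 over vector) with its standard error for the 10 members (above the dotted line) and 10 further BCL2 family genes (below). BCL2A1 at 2.73 and HRK at 1.32 are the farthest from 0, and the other 18 genes lie between -0.36 and 0.52.

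Genes of the wider pathway were taken by role from lists of 113 genes that hold none of the 10 members, not all of which are described here, and which include the 13 further family genes above. Of the 113 genes, 104 were tested, and 16 were higher and 10 lower past an adjusted p of 0.05 (edgeR), which is 25% of them beside 18.1% of all genes. Since these lists too were chosen with earlier results of these data known, nothing is read from that share. The median log2 fold change was 0.0041, beside 0.0027 over all genes. Without vector replicate 1 the count was 13 and without oeRNF112 replicate 1 it was 15, against 26.

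Downstream of the mitochondria, the list of the apoptosome, caspases and released mitochondrial factors held no call in 15 genes tested with edgeR or DESeq2, while limma on log2(RPKM + 1) made 1 call. An unadjusted p under 0.05 was reached by 4 of them, CYCS, CASP10, AIFM1 and DFFB. CYCS, which encodes cytochrome c, had a log2 fold change of 0.34 (adjusted p = 0.08, edgeR), and passed on library totals in edgeR (0.0306) and with limma on log2(RPKM + 1) (0.0499). The median of the list was -0.093, beside 0.0027 over all genes tested, of which 18.1% were called in edgeR.

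Of 6 inhibitor of apoptosis genes tested, 1 was higher and 1 lower in edgeR, which is 33.3% beside 18.1% of all genes tested. BIRC3 (cIAP2), an NF-kB target and ubiquitin ligase of TNF receptor complexes, had 1602, 1640 and 1278 counts in vector and 2113, 1946 and 2541 in oeRNF112, a log2 fold change of 0.47 (adjusted p = 0.0263, edgeR). BIRC5 (survivin), which is expressed in mitosis, had 6921, 6273 and 7759 counts in vector and 5646, 5602 and 4918 in oeRNF112, a log2 fold change of -0.46 (adjusted p = 0.0204, edgeR). The groups of both genes were apart, yet each call was lost in 4 of the 6 fits that left out 1 sample (vector replicate 1 or 3, oeRNF112 replicate 1 or 3), with adjusted p of up to 0.0969 for BIRC3 and 0.0792 for BIRC5 in edgeR. The BIRC5 call was also lost with limma on log2(RPKM + 1) (adjusted p = 0.0513) and on log2(RPKM + 0.1) (0.0765). With the replicate block in edgeR both calls were lost, at an adjusted p of 0.128 for BIRC3 and 0.116 for BIRC5. BIRC2 (cIAP1) was at 0.25 (adjusted p = 0.0876, edgeR), and passed on library totals in edgeR (0.0353) and with limma on log2(RPKM + 1) (0.0406).

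Among 11 death receptor genes and adaptors tested, 2 were lower and none higher in edgeR, which is 18.2% beside 18.1% of all genes tested. In the same test 6 had an unadjusted p under 0.05, TNFSF10, FAS, TNFRSF10B, TNFRSF1A, TNF and FADD. TNFSF10, the ligand TRAIL, had 149, 127 and 116 counts in vector and 47, 67 and 60 in oeRNF112, which gave a log2 fold change of -1.25 ± 0.207 (SE; edgeR adjusted p = 0.00353). FAS, the receptor of FAS ligand, had 4591, 4257 and 3835 counts in vector and 3157, 3087 and 3243 in oeRNF112, which gave a log2 fold change of -0.50 ± 0.0871 (SE; edgeR adjusted p = 0.00457). For both genes the highest oeRNF112 sample lay below the lowest vector sample, and both calls stayed when any 1 sample was left out. With the replicate block in edgeR the FAS call was lost (adjusted p = 0.0574), while that of TNFSF10 stayed (0.0233). TNFRSF10B, a TRAIL receptor, was at 0.29 (adjusted p = 0.0515, edgeR), and passed in 6 of 14 alternatives, among them DESeq2 (0.0358) and library totals in edgeR (0.0238). TNFRSF1A, the main TNF receptor, was at -0.20 (adjusted p = 0.11, edgeR). TNF itself was at 0.32 and FADD, the adaptor of FAS, at -0.29 (adjusted p of 0.143 and 0.134, edgeR).

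**Figure D5:**
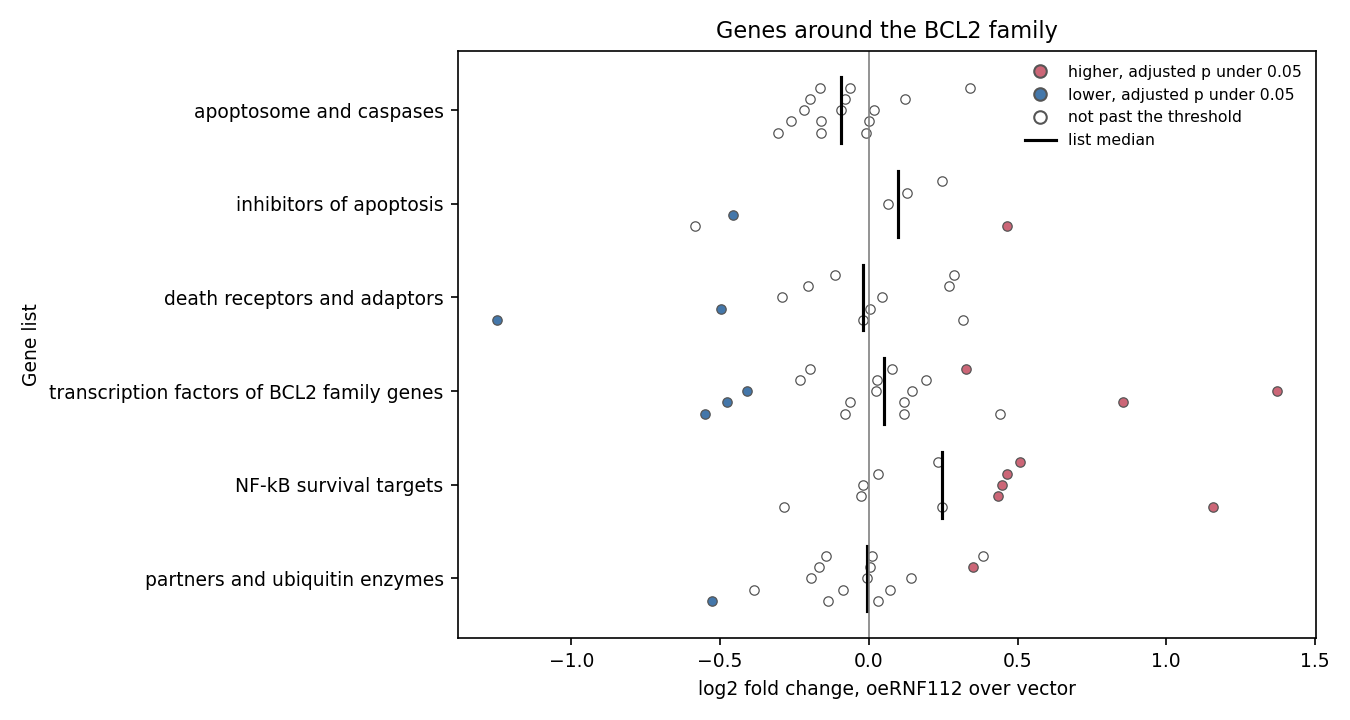
Log2 fold change of each tested gene in 6 lists around the BCL2 family, filled red or blue where it was higher or lower in oeRNF112 at an adjusted p under 0.05 and open otherwise, with a black line at the list median. Caspase genes cluster near 0 with open points only, while the list of 11 NF-kB targets holds 5 filled points, all on the higher side. Of all genes tested, 9.97% were higher and 8.14% lower at this threshold.

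Transcription factors that act on BCL2 family genes moved in both directions, with 3 higher and 3 lower of 18 tested. That is 33.3%, beside 18.1% of all genes tested. DDIT3 (CHOP), the stress factor linked to BIM and PUMA, had 1081, 933 and 1216 counts in vector and 2760, 3416 and 2673 in oeRNF112, which gave a log2 fold change of 1.37 ± 0.139 (SE; edgeR adjusted p = 0.000344). MITF, a driver of BCL2A1 in melanocytes, had 347, 392 and 353 counts in vector and 619, 656 and 816 in oeRNF112, a log2 fold change of 0.86 (adjusted p = 0.00206, edgeR). Both were above vector in all 3 oeRNF112 samples. NFKB2, a subunit gene of NF-kB that is itself a target, was at 0.33 (adjusted p = 0.0306, edgeR), a call lost in 5 of 6 fits that left out 1 sample, all but that without vector replicate 3, at an adjusted p of up to 0.102. The replicate block in edgeR also removed it (adjusted p = 0.188). The other subunit genes were not past the threshold, with NFKB1 at -0.20, RELA at 0.12, RELB at 0.078 and REL at 0.44 (adjusted p of 0.13, 0.335, 0.636 and 0.246, edgeR). Of the lower genes, TP73 was at -0.41 and STAT5A at -0.55 (adjusted p of 0.0118 and 0.0147, edgeR), and both calls were lost without vector replicate 1 or oeRNF112 replicate 1, at an adjusted p of up to 0.0823. The replicate block in edgeR also removed both (adjusted p of 0.118 and 0.0823). NFKBIA, the inhibitor that NF-kB itself induces, was at 0.026 (adjusted p = 0.86, edgeR).

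Of 11 NF-kB targets with a role in survival or inflammation, 5 were higher and none lower in edgeR, and BCL3, at -0.28, was the gene of negative fold change with an unadjusted p under 0.05. Their median log2 fold change was 0.25. TNFAIP3 (A20), an inhibitor of NF-kB signaling, had 5450, 5889 and 5094 counts in vector and 12340, 11192 and 15217 in oeRNF112, which gave a log2 fold change of 1.16 ± 0.112 (SE; edgeR adjusted p = 0.000283). ICAM1, an adhesion molecule, was at 0.51 (adjusted p = 0.00263, edgeR) and held its call without any 1 sample. IER3 and GADD45B, stress genes, were at 0.45 and 0.43 (adjusted p of 0.0147 and 0.0336, edgeR), and BIRC3 is described above. The IER3 call was lost without vector replicate 1 (adjusted p = 0.0688, edgeR), and that of GADD45B in 5 of 6 fits, all but that without vector replicate 3, at an adjusted p of up to 0.09. The replicate block in edgeR also removed both calls (adjusted p of 0.0933 for IER3 and 0.152 for GADD45B). This list overlaps with those of the inhibitors of apoptosis and of death receptor adaptors in BIRC2, BIRC3 and CFLAR.

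Among 15 tested partners and ubiquitin enzymes of BCL2 family proteins, 1 was higher and 1 lower, which is 13.3% beside 18.1% of all genes tested. The median was -0.0047, beside 0.0027 over all genes. MARCHF5, a mitochondrial ubiquitin ligase linked to MCL1 and NOXA turnover, was at 0.35 (adjusted p = 0.0219, edgeR). USP13, a deubiquitinase that stabilises MCL1, was at -0.53 (adjusted p = 0.0191, edgeR). The MARCHF5 call was lost without vector replicate 1 or 3 or oeRNF112 replicate 1 or 2, and that of USP13 without vector replicate 1 or oeRNF112 replicate 1 or 2, at an adjusted p of up to 0.0719 and 0.0705. The replicate block in edgeR removed both calls too (adjusted p of 0.148 for MARCHF5 and 0.0982 for USP13). The USP13 call was also lost on library totals in edgeR (adjusted p = 0.0565). With limma it was lost on log2(RPKM + 1) (adjusted p = 0.0895) and on log2(RPKM + 0.1) (0.106). TPT1, the most abundant gene of the list, was at -0.39 (adjusted p = 0.0819, edgeR), and passed with DESeq2 (0.0331) and without replicate 2 of either group. DYNLL1, the dynein light chain that binds BIM and BMF, was at -0.14 (adjusted p = 0.423, edgeR).

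The genes whose log2 CPM followed that of BCL2A1 most closely over the 6 samples, of 14348 ranked, were STPG1, GABARAPL1, TAGLN3, IFI6 and OAS1, with Pearson's r from 0.998 to 0.999. All 6 samples share the contrast between groups, and 524 genes had an r above 0.95, so this is a description. IFI6 and OAS1 are interferon-induced genes and GABARAPL1 an autophagy gene. IFI6 had 842, 695 and 745 counts in vector and 6451, 8570 and 6484 in oeRNF112, a log2 fold change of 3.16 (standard error 0.143). All 5 genes, like BCL2A1, had their highest count in oeRNF112 replicate 2, which follows largely from their choice by likeness to BCL2A1 in these samples. OAS1 was at 1.60, TAGLN3 at 1.51, GABARAPL1 at 0.67 and STPG1 at 0.66.

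Since BCL2A1 is best known from leukocytes, their markers were counted beside it. Of 10 leukocyte markers, 9 were in the table, with a summed level of 18.6, 17.4 and 18.1 RPKM in vector and 36.6, 40.9 and 33.4 RPKM in oeRNF112. CD68, a lysosomal protein that is also made outside leukocytes, was the most abundant, with 987, 870 and 955 counts in vector and 2125, 2645 and 2103 in oeRNF112. The other 8 markers summed to 4.58, 4.83 and 4.25 RPKM in vector and 5.49, 2.65 and 2.83 RPKM in oeRNF112. PTPRC, the pan-leukocyte gene CD45, had 54, 37 and 40 counts in vector and 33, 24 and 26 in oeRNF112, and LAPTM5 had 293, 258 and 231 against 215, 108 and 125. CD3E had at most 4 counts, ITGAM at most 11 and SPI1 at most 23, while CD14 had from 53 to 91. LYZ had 97 counts in oeRNF112 replicate 1 and at most 8 elsewhere. The part of such cells in the BCL2A1 difference was not tested.

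Markers of the line itself were checked as well. KRT8, KRT18, KRT7 and KRT19, keratins of bladder epithelium, and VIM, CDH2, FN1 and ZEB1, mesenchymal genes, were all detected. EPCAM had 94, 66 and 99 counts in vector and 143, 183 and 165 in oeRNF112, which gave a log2 fold change of 0.84 (adjusted p = 0.0208, edgeR). KRT7 and KRT18 went the other way, at -0.48 and -0.51 (adjusted p of 0.0226 and 0.013, edgeR), and CDH2 was at -0.44 (adjusted p = 0.0252, edgeR). Of the genes of differentiated urothelium, PPARG, FOXA1 and GATA3 were detected, while UPK1A, UPK2 and UPK3A had at most 20, 7 and 1 counts. FOXA1 had 1416, 1644 and 1430 counts in vector and 845, 571 and 834 in oeRNF112, which gave a log2 fold change of -1.08 (adjusted p = 0.00132, edgeR). The summed epithelial markers were 1940, 1795 and 2231 RPKM in vector and 1598, 1699 and 1460 RPKM in oeRNF112, and the part of these marker differences in those of BCL2 family genes was not tested. In bulk RNA, fewer cells of a type and less RNA per cell cannot be told apart.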

How the data were processed

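The series holds RNA-seq of T24 cells, with 3 samples labelled vector and 3 labelled oeRNF112. According to the submitters' processing notes, reads were trimmed with Trimmomatic 0.36 and counted with featureCounts of Subread 1.5.1 on GRCh38. The aligner, the annotation and the strand setting of the counting are not given in the sources used here, so reads of BCL2L1, BAK1, BCL2L11, BBC3 and BCL2 cannot be told apart from those of antisense genes that overlap them if strand was ignored. MCL1, BID, BBC3 and BCL2 also overlap annotated genes on their own strand (ADAMTSL4-AS1, MIR3198-1, MIR3191 and AC022726.1), so their counts are uncertain to that extent whatever the setting. The authors deposited read counts per gene, without normalization, and RPKM values, which for 20637 of 20637 genes equalled the count over the column total and 1 length per gene (within 0.1%).

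Counts were fitted with edgeR 4.0.16 in R 4.3.3 (its filter on low counts, TMM factors of 0.957 to 1.049, quasi-likelihood test, Benjamini-Hochberg over 14467 genes). Standard errors came from the F statistic. Alternatives were DESeq2 1.42.0, limma 3.58.1 on log2(RPKM + 1) and log2(RPKM + 0.1), other factors and filters, a replicate block and leaving out each sample. No libraries were copies of each other. On simulated data, with 14324 genes tested, edgeR recovered 99 of 100 genes changed by 1 and 100 of 100 changed by 2 on the log2 scale, with 16 false calls among 215. The simulation gave every gene the same dispersion, changed only genes with a mean above 1 CPM, and raised as many as it lowered. These settings are simpler than the data, so the recovery checks the code and does not give the sensitivity for these libraries.

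The members and lists were chosen with earlier results of these data known. Genes named are RNF112, the members, the other family genes, at most 5 called genes with the smallest p and the 2 highest in RPKM of each list, the 5 genes most like BCL2A1 (mean count of at least 10), and all markers. Genes with an unadjusted p under 0.05 in lists with no call in a direction, and the NF-kB subunit genes besides NFKB2, were named after their values were seen. Some genes, a list and a motif under these rules are not reported here. RefSeq promoter windows (GRCh38.p14) cover 250 bases before to 50 after the start.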

Additional observations from a re-analysis of the deposited data

How the results depend on the processing

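BCL2A1 kept its direction in all 14 alternatives, with log2 fold changes from 2.295 (limma on log2(RPKM + 1)) to 2.83, as did MCL1 (0.367 to 0.491), PMAIP1 (0.447 to 0.615) and BID (-0.446 to -0.245), and 132 of 140 member values moved by less than the spread between replicates. BID was past an adjusted p of 0.05 in 5 of the 14. BAX was above 0 in 1, BBC3 below 0 in 1 and BCL2L11 below 0 in 8 of the 14. Library totals gave 2020 higher and 659 lower genes (75.4% higher, against 55%), limma on log2(RPKM + 1) 651 lower and on log2(RPKM + 0.1) 555 lower, at 72.5% and 76.5% higher. Leaving out 1 sample at a time gave 1061 to 3387 genes, 702 to 1841 higher and 359 to 1546 lower, against 2620, 1442 and 1178, with 2 to 4 members and 13 to 30 of the 104 listed genes. The replicate block gave 876 genes (618 higher, 258 lower), 1 member (BCL2A1) and 12 listed genes. The samples share only a number (correlations of same-numbered deviations of -0.105, -0.319 and -0.263, and 0 of 6 samples correlated best with their own number). Of 644 values of 46 other genes taken by the naming rule, 50 in 12 genes lost the call, 15 in 6 genes gained it and none reversed it. Adding BNIP3 and BNIP3L to the BH3-only sum, chosen after seeing the data, lowered the shares of PMAIP1, BAD and BID in both groups, since the sum is larger. For the rest, the cause was not tested. Depth limits BCL2L10, BCL2L14 and BCL2L15, and the number of samples limits differences as small as those of BCL2L11 and BBC3.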
